A study of Mus musculus with 11 samples.

Results

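Transcripts of 10 amino acid transporter genes (Slc7a1, Slc7a3, Slc7a5, Slc7a11, Slc3a2, Slc1a4, Slc1a5, Slc38a1, Slc38a2 and Slc6a9) were followed in mouse embryonic stem cells whose SPT16 protein was targeted for degradation for a day; the protein itself was not measured in these data. They are 10 of the 55291 rows of a gene count table, and all 10 have a row. They were picked by symbol, with earlier results of these data known. SPT16 is the large subunit of FACT, a histone chaperone that handles nucleosomes during transcription and replication. In the tagged lines its C-terminal end is fused to V5 and to a degron (AID) that marks the protein for destruction when 3-indoleacetic acid (IAA), an auxin of plants, binds the receptor TIR1. Tagged cells received 500 nM IAA (3 libraries: 1 of line 10E and 2 of line 11D) or ethanol (EtOH, the solvent; 4 libraries: 2 of each line), for 24 hours. An untagged line received IAA as well (3 libraries). All cells were of the E14 line and grew without feeders in serum, LIF and the inhibitors CHIR99021 and PD0325091, in medium to which glutamine and non-essential amino acids had been added. Each tagged line is a separately targeted clone, and the line codes of the count table are tied to no clone number in the labels.

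Cells take up amino acids through carriers of several solute carrier families. Cationic amino acids such as arginine and lysine enter mainly through the CAT proteins (Slc7a1, Slc7a3), large neutral ones such as leucine through LAT1 (Slc7a5) paired with the heavy chain 4F2hc (Slc3a2), and glutamine and small neutral ones through ASCT and SNAT carriers (Slc1a4, Slc1a5, Slc38a1, Slc38a2). Several of these genes are known targets of ATF4, the transcription factor of the amino acid response, and leucine and arginine entry feeds the kinase complex mTORC1. Mouse embryonic stem cells are known for their dependence on threonine.

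Library totals ran between 3100127 and 13510163 counts in tagged IAA, 3554390 and 11848952 in tagged EtOH, and 4521137 and 11271067 in untagged IAA libraries. Levels are given in CPM, here read counts scaled by library totals and by the TMM factors of edgeR. The transcript of the targeted gene, Supt16, lay between 253 and 286 CPM in tagged IAA and 364 and 416 in tagged EtOH libraries. In untagged IAA libraries it lay between 538 and 577 CPM. The degron acts on the protein, so this transcript checks no label. All 8 defining markers of embryonic stem cells were detected in each group. Their summed level was 1780 to 1976 CPM in tagged IAA, 4383 to 5518 in tagged EtOH and 4770 to 4950 in untagged IAA libraries. The 6 neural markers summed to 83.1 to 117 CPM in tagged IAA, against 59.6 to 69.1 in tagged EtOH and 49.99 to 66.2 in untagged IAA, with Olig2 at 0 in all. Fibroblast markers summed to 15.8 to 19.7, 21.6 to 34.4 and 22.2 to 28.7 CPM in the same order of groups, with Postn at 0 in all. The 6 primitive endoderm markers summed to 7.41 to 11.8, 3.11 to 8.38 and 3.35 to 6.71 CPM in that order, and the 6 trophectoderm markers to 34.2 to 40.8, 33.2 to 50.7 and 34.9 to 41.8 CPM. A sum can hide markers that go both ways: of 5 neural markers tested in IAA against EtOH (fit below), 3 were called higher and 1 lower. Over all genes tested, 29.3% were called higher and 28.1% lower. The part of these marker shifts in the results below was not tested, and in bulk RNA fewer cells of a type and less RNA per cell cannot be told apart.

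After IAA in the tagged lines, 7 of the 10 transporter transcripts fell and none rose, though with library totals alone as the scaling 5 fell and 2 rose. In IAA against EtOH, Slc7a1, Slc7a3, Slc3a2, Slc1a4, Slc38a1, Slc38a2 and Slc6a9 passed an edgeR false discovery rate (FDR, Benjamini-Hochberg over all genes tested) under 0.05, all lower. Slc7a5, Slc1a5 and Slc7a11 did not pass. Of all 17904 genes tested, 28.1% were called lower and 29.3% higher. For the higher direction, 0 members had an edgeR p under 0.05 before adjustment, and DESeq2 gave 0 as well. The median log2 fold change of the members was -0.73, against 0.03 over all genes tested. Because the members were chosen with earlier results of these data known, values over all genes are given for description and test nothing about them. In TMM-scaled CPM the 7 members that fell also had every IAA library below every EtOH library, as did 24.8% of all tested genes. The opposite separation was shown by 27.7% of genes and 0 members. With library totals alone Slc3a2 overlapped. Together the 10 genes took 1383 ± 46.8 CPM (SD, n = 3) in tagged IAA, 1917 ± 114 (n = 4) in tagged EtOH and 1752 ± 84.0 (n = 3) in untagged IAA libraries.

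**Figure D1:**
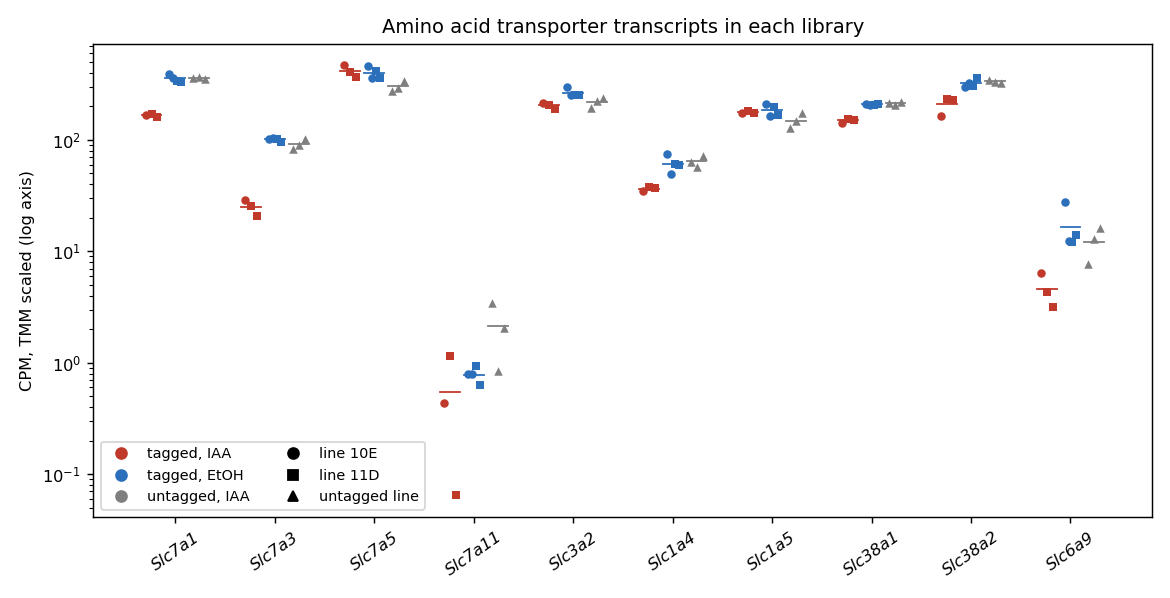
Level of each transporter transcript in each library (CPM scaled by TMM, log axis), for tagged IAA (red), tagged EtOH (blue) and untagged IAA (grey) libraries; horizontal lines are group means and marker shapes are lines. The red points lie below the blue ones for 7 genes, and red and blue points overlap for Slc7a5, Slc7a11 and Slc1a5.

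Both cationic amino acid carriers fell, and Slc7a3 had the lowest log2 fold change of the 10. Slc7a1 (chromosome 5, positions 148327410 to 148399904, minus strand, mm10 build) encodes CAT1, a widely expressed carrier of arginine, lysine and ornithine. It stood at 166 CPM in the 10E IAA library and at 171 and 161 in 11D IAA, against 395 and 361 in 10E EtOH and 341 and 328 in 11D EtOH. All 3 IAA libraries lay well under the lowest EtOH library, and the 10E EtOH libraries were the highest. IAA over EtOH gave a log2 fold change of -1.09 ± 0.09 (SE; edgeR FDR 7.92e-08). Slc7a3 (chromosome X, positions 101079210 to 101086020, minus strand) encodes CAT3, a carrier of the same class with a narrower expression. It stood at 28.7 CPM in 10E IAA and at 25.4 and 20.6 in 11D IAA, against 103 and 103 in 10E EtOH and 103 and 96.7 in 11D EtOH. The EtOH libraries were close together, and the IAA libraries lay far below them. The log2 fold change of -2.04 ± 0.12 (edgeR FDR 2.41e-09) was below that of all but 1.56% of the genes tested.

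The heavy chain of the heteromeric carriers fell, a call that ended with library totals alone. The light chains among the 10 genes, Slc7a5 and Slc7a11, did not pass. Light chains outside the 10 are not covered by that statement. Slc3a2 (chromosome 19, positions 8706882 to 8723369, minus strand) encodes 4F2hc, also called CD98, a glycoprotein that brings the light chains to the cell surface. It stood at 217 CPM in 10E IAA and at 207 and 188 in 11D IAA, against 296 and 254 in 10E EtOH and 253 and 254 in 11D EtOH. The groups did not overlap, with 3 of the 4 EtOH libraries nearly equal and 10E EtOH replicate 1 above them. The log2 fold change was -0.36 ± 0.09 (edgeR FDR 0.00302). Slc7a5 (chromosome 8, positions 121881150 to 121907694, minus strand) encodes LAT1, the light chain that exchanges leucine and other large neutral amino acids. It stood at 466 CPM in 10E IAA and at 404 and 366 in 11D IAA, against 465 and 359 in 10E EtOH and 414 and 359 in 11D EtOH. The groups covered nearly the same range. Its log2 fold change was 0.06 ± 0.11 (edgeR FDR 0.640), with a 95% interval of -0.16 to 0.29.

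Slc7a11 (chromosome 3, positions 49892526 to 50443614, minus strand) encodes xCT, the light chain that imports cystine in exchange for glutamate and thereby supplies glutathione synthesis. It was nearly silent in every library. Only 2 reads were counted in 10E IAA and 4 and 1 in 11D IAA, against 6 and 8 in 10E EtOH, 3 and 7 in 11D EtOH, and 15, 5 and 22 in untagged IAA. The tagged groups overlapped, and the highest and the lowest CPM of the tagged libraries (1.14 and 0.0647) were both in 11D IAA. The gene passed the filter on low counts through 1 of the 7 tagged libraries, 11D IAA replicate 1. Its log2 fold change of -1.07 ± 0.80 (edgeR FDR 0.266) had a 95% interval of -2.78 to 0.63, so that a fall or a gain of moderate size was not detectable at this depth.

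The ASCT carriers exchange small neutral amino acids with sodium, and the first of the pair fell while the second did not pass. Slc1a4 (chromosome 11, positions 20302180 to 20332713, minus strand) encodes ASCT1, an exchanger of alanine, serine, cysteine and threonine. It stood at 34.9 CPM in 10E IAA and at 37.6 and 37.0 in 11D IAA, against 75.2 and 49.6 in 10E EtOH and 61.3 and 59.7 in 11D EtOH. The IAA libraries were close together and below all EtOH libraries, of which the 10E pair held both the highest and the lowest. The log2 fold change was -0.76 ± 0.14 (edgeR FDR 0.000242). Slc1a5 (chromosome 7, positions 16781340 to 16798274, plus strand) encodes ASCT2, a glutamine exchanger. It stood at 175 CPM in 10E IAA and at 182 and 175 in 11D IAA, against 210.5 and 163 in 10E EtOH and 198 and 169 in 11D EtOH. Its IAA values lay inside the range of the EtOH values. Its log2 difference, IAA over EtOH, was -0.07 ± 0.10 (edgeR FDR 0.604), with a 95% interval of -0.29 to 0.15, and with library totals alone it turned to 0.26 (edgeR FDR 0.0451).

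Promoter windows from RefSeq (GRCm38.p6, 250 bases before to 50 after a transcript start) matched 6 of the 10 genes, with 9 windows. Slc7a3, Slc7a5, Slc1a5 and Slc38a1 had no window and were not searched. The 9 windows were searched on both strands for TGATGCAA, the composite element that ATF4 and C/EBP factors are known to bind, for TGACNNNGC, the antioxidant element, and for the E-box CACGTG. The windows of Slc7a11, which did not pass in IAA against EtOH, and of Slc1a4 are printed because they hold the first element. Whether ATF4 has a part in any of the changes was not tested. Of 32544 promoter windows, 0.867% hold TGATGCAA, and the windows of Slc7a11 and Slc1a4 were the only ones among the 9 with a match to it. In the Slc7a11 window it occurred on the plus strand of the gene starting 66 bases before the transcript start, and on the other strand starting 47 bases before it. In the Slc1a4 window it occurred on the other strand, from 4 bases before the transcript start and across that start. Each position is that of the first matched base as printed, read along the gene's strand. Matches to TGACNNNGC, which 12.4% of windows hold, were found for Slc7a1, Slc38a2 and Slc6a9, and no window of these genes held CACGTG, which 7.17% of windows hold. The window of Slc7a1 with a match to TGACNNNGC is printed as an example without TGATGCAA. Bases outside the windows were not searched, so a gene without a match may hold the element elsewhere. A match is a run of letters and was not tested as a binding site. Capitals mark the matched letters, and the sequences read 5′ to 3′ on the gene's strand, which is minus in each case.
Slc7a11 (chr3:50443564-50443863): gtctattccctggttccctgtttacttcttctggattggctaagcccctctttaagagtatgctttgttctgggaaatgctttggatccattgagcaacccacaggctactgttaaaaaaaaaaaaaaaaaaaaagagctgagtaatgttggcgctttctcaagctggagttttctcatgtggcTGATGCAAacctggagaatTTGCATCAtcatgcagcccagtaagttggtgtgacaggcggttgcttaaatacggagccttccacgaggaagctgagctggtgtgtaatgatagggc
Slc1a4 (chr11:20332664-20332963): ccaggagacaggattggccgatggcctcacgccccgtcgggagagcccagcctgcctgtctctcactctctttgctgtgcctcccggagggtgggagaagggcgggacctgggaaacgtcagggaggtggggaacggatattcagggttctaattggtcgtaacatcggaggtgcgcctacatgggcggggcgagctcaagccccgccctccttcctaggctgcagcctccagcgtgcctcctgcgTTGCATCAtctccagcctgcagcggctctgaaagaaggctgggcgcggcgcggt
Slc7a1 (chr5:148399855-148400154): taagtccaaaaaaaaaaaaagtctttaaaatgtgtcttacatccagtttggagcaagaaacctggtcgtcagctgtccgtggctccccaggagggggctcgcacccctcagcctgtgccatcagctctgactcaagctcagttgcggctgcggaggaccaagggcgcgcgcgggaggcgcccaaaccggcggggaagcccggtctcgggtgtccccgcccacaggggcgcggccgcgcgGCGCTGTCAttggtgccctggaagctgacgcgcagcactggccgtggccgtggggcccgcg

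Both SNAT carriers, which take up glutamine and other small neutral amino acids together with sodium, fell, Slc38a1 not with library totals alone. Slc38a1 (chromosome 15, positions 96571418 to 96642913, minus strand) encodes SNAT1. It stood at 142 CPM in 10E IAA and at 155 and 152 in 11D IAA, against 210 and 205 in 10E EtOH and 208 and 211 in 11D EtOH. Values within each group were close together and the groups lay apart. The log2 fold change was -0.50 ± 0.08 (edgeR FDR 0.000125). Slc38a2 (chromosome 15, positions 96687392 to 96699730, minus strand), the neighbouring gene, encodes SNAT2, a carrier that is known to be induced when amino acids run short. It stood at 163 CPM in 10E IAA and at 232 and 229 in 11D IAA, against 301 and 324 in 10E EtOH and 305 and 363 in 11D EtOH. The 10E IAA library was the lowest of all. The fold change on the log2 scale was -0.70 ± 0.11 (edgeR FDR 3.57e-05).

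Slc6a9 (chromosome 4, positions 117834506 to 117875198, plus strand) encodes GLYT1, the sodium- and chloride-dependent glycine carrier, known in early mouse embryos for its part in cell volume control. It stood at 6.36 CPM in 10E IAA and at 4.28 and 3.17 in 11D IAA, against 27.6 and 12.4 in 10E EtOH and 12.1 and 14.1 in 11D EtOH. All IAA libraries lay below all EtOH libraries, and 10E EtOH replicate 1 stood well above the other EtOH libraries. The log2 fold change was -1.82 ± 0.28 (edgeR FDR 4.58e-05), and -1.62 without that library. Exons of 3 genes on the opposite strand, Ccdc24, Gm17114 and B4galt2, overlap 27.8%, 9.94% and 0.895% of the exon bases of Slc6a9, so its value is uncertain, while the exons of the other members overlap no other annotated gene.

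The size of these changes depended on how libraries were scaled. With library totals alone in place of TMM factors, the median log2 fold change of all genes moved by 0.33, and 43.1% of genes were called higher and 15.9% lower. On that scale 5 members remained lower, namely Slc7a1 (-0.76), Slc7a3 (-1.70), Slc1a4 (-0.43), Slc38a2 (-0.37) and Slc6a9 (-1.50). Slc3a2 (-0.03, edgeR FDR 0.787) and Slc38a1 (-0.16, edgeR FDR 0.111) no longer passed. Slc7a5 (0.39, edgeR FDR 0.00543) and Slc1a5 were then called higher. DESeq2 with its own size factors called the same number of members as edgeR with TMM, 7 lower and 0 higher.

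**Figure D2:**
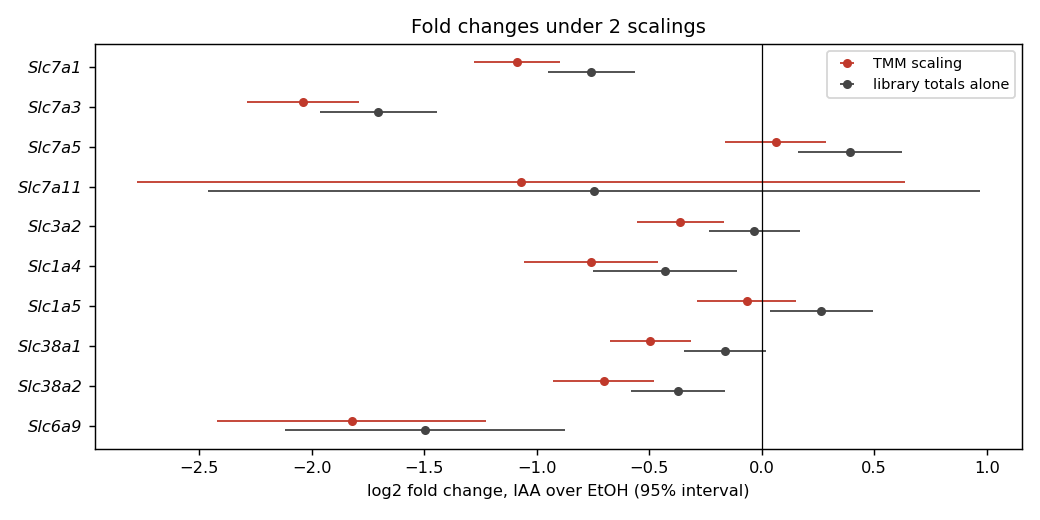
Log2 fold change of IAA over EtOH in the tagged lines with its 95% interval, for each transporter gene with TMM scaling (red) and with library totals alone (dark grey). Each grey point lies to the right of its red point by about 0.33, and the intervals of Slc7a1, Slc7a3, Slc1a4, Slc38a2 and Slc6a9 stay below 0 under both.

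Ratios of 2 transcripts within a library do not depend on scaling, and those of 4 chosen pairs are described here. The pairs were chosen with the values known, as carriers of 1 family or, for Slc7a5 and Slc3a2, as partners of 1 heterodimer. Slc7a5 with Slc3a2 and Slc1a4 with Slc1a5 each set a carrier that fell against 1 that did not pass. A separation of their ratios was thus partly fixed by the choice, and no share over other gene pairs was computed. The read ratio of Slc7a3 to Slc7a1 was 0.150 ± 0.022 (SD, n = 3) in tagged IAA, 0.286 ± 0.018 (n = 4) in tagged EtOH and 0.255 ± 0.031 (n = 3) in untagged IAA libraries. That of Slc7a5 to Slc3a2 was 2.02 ± 0.12 in tagged IAA, 1.51 ± 0.11 in tagged EtOH and 1.38 ± 0.066 in untagged IAA libraries. Slc1a4 to Slc1a5 gave 0.206 ± 0.0058 in tagged IAA, 0.331 ± 0.028 in tagged EtOH and 0.434 ± 0.059 in untagged IAA libraries. For these 3 ratios no tagged IAA library overlapped either other group. A two-sided exact permutation test of the log2 ratio gave p = 0.0571 for each of them between tagged IAA and tagged EtOH, the smallest p that 3 against 4 libraries allow (0.0762 adjusted over the 4 ratios). The test left line out, and for pairs chosen this way its p-values are descriptive only. The ratio of Slc38a2 to Slc38a1 overlapped, at 1.39 ± 0.20 in tagged IAA, 1.55 ± 0.13 in tagged EtOH and 1.58 ± 0.069 in untagged IAA libraries (exact permutation p = 0.343 for tagged IAA against tagged EtOH).

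**Figure D3:**
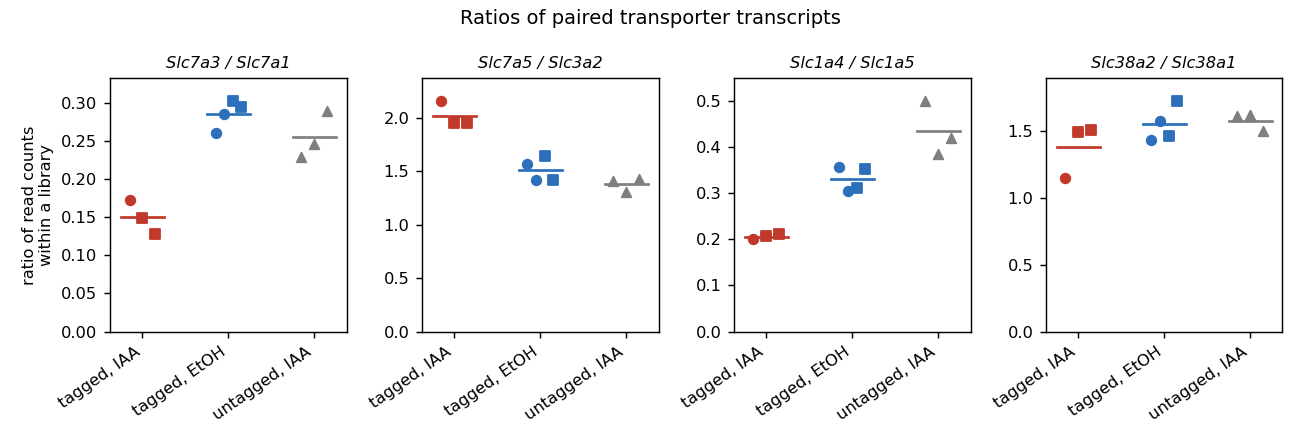
Ratio of read counts of paired transporter transcripts within each library, by group (tagged IAA, tagged EtOH, untagged IAA), on linear axes from 0; horizontal lines are group means and shapes are lines as in the plot of levels. Slc7a5 to Slc3a2 is highest in tagged IAA (2.02 on average), while Slc7a3 to Slc7a1 (0.150) and Slc1a4 to Slc1a5 (0.206) are lowest there.

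No difference in the IAA effect between the 2 tagged lines was called for any member. In 10E, where the single IAA library was assumed to vary like the other groups, 18.3% of all genes were called lower, and in 11D 23.1%. Slc7a1 fell by 1.20 ± 0.14 on the log2 scale in 10E and by 1.02 ± 0.11 in 11D, and Slc7a3 by 1.85 ± 0.18 and 2.15 ± 0.14. Slc6a9 fell by 1.66 ± 0.46 in 10E and by 1.93 ± 0.38 in 11D, Slc1a4 by 0.85 ± 0.23 and 0.70 ± 0.18, and Slc38a1 by 0.56 ± 0.13 and 0.45 ± 0.10. Slc3a2 stood at -0.36 ± 0.15 in 10E, where it did not pass (edgeR FDR 0.0691), and fell by 0.36 ± 0.12 in 11D (edgeR FDR 0.0208). Slc38a2 fell by 0.95 ± 0.15 in 10E and by 0.54 ± 0.12 in 11D, a difference of -0.41 ± 0.18 with a 95% interval of -0.81 to -0.02. That difference had an unadjusted edgeR p of 0.0424 and an FDR of 0.938. The line by treatment interaction called 0% of genes in edgeR. Among the members, 1 had an unadjusted p under 0.05 and 0 were called by DESeq2. Over all genes 872 had an unadjusted p under 0.05 and DESeq2 called 1.

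Set against untagged cells under the same agent, tagged IAA cells had 6 members lower and 1 higher, and edgeR also called the nearly silent Slc7a11 lower. Of the 6, Slc6a9 had few reads, 29 in 10E IAA and 15 and 49 in 11D IAA, and its exons overlap those of other genes. Of all 17439 genes tested here, 27.8% were called lower and 27.9% higher. This comparison shares the tagged IAA libraries with the one above, so the values are given side by side and are no second set of evidence. The groups are also different lines. Within this comparison, an effect of IAA on the tagged protein and a difference between lines cannot be told apart. Over untagged cells the log2 fold change was -1.12 ± 0.09 for Slc7a1, -1.86 ± 0.12 for Slc7a3, -0.84 ± 0.16 for Slc1a4, -0.53 ± 0.09 for Slc38a1, -0.80 ± 0.10 for Slc38a2 and -1.42 ± 0.34 for Slc6a9. For these 6 every tagged IAA library lay below every untagged library, as for 29.9% of genes tested. In the untagged libraries Slc7a1 stood at 363, 368 and 353 CPM, Slc7a3 at 82.9, 90.7 and 102, and Slc38a2 at 347, 334 and 328.

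Slc7a5, Slc3a2, Slc1a5 and Slc7a11 had these values against untagged cells. Slc7a5 was higher in tagged IAA cells (0.48 ± 0.12, edgeR FDR 0.00286), whose libraries all lay above the untagged ones at 274, 293 and 340.1 CPM, as for 31.6% of genes tested. Slc3a2 did not pass (-0.09 ± 0.10, edgeR FDR 0.496), with untagged libraries at 194, 225 and 238 CPM, and with library totals alone its value turned to 0.21. Slc1a5 did not pass (0.24 ± 0.13, edgeR FDR 0.125) although every tagged IAA library lay above the untagged libraries at 128, 147 and 173 CPM. It passed without untagged IAA replicate 3 (0.36, edgeR FDR 0.0318) and with library totals alone (0.53, edgeR FDR 0.00243). Slc7a11 had 7 reads in all tagged IAA against 42 in untagged IAA libraries, and edgeR called it lower (-2.45 ± 0.78, FDR 0.0151). It passed the filter on low counts of this fit (1.42 CPM) through 2 untagged libraries and no tagged one, that is, through the group where it is high, and is not counted with the 6. Its groups overlapped, and the call ended with DESeq2 (adjusted p = 0.0734) and without 11D IAA replicate 2 (-1.49, edgeR FDR 0.104). No test was made of whether the 2 comparisons differ.

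Between tagged EtOH cells, which received no IAA, and untagged IAA cells, edgeR called no member, while 7 of 12 alternatives, DESeq2 among them, called Slc7a5 higher. The groups differ in tag and agent, which cannot be told apart. Of all genes 2.29% were called lower and 1.27% higher, and edgeR called 0 of the 10 members, with 4 under 0.05 before adjustment and 1 by DESeq2. Slc7a5 had a log2 fold change of 0.40 ± 0.11 (edgeR FDR 0.0547, and adjusted p of 0.00467 to 0.238 over the alternatives), with every tagged EtOH library above every untagged one, as for Slc3a2 and 6.73% of genes tested. The opposite separation was seen for 0 members and 8.07% of genes. The log2 fold change was 0.27 ± 0.09 for Slc3a2, 0.30 ± 0.12 for Slc1a5 and -1.42 ± 0.58 for Slc7a11. For the 4 carriers Slc7a1, Slc1a4, Slc38a1 and Slc38a2 it lay between -0.07 and -0.02, with the widest 95% interval, that of Slc1a4, running from -0.36 to 0.21. Slc7a3 (0.13 ± 0.10) and Slc6a9 (0.36 ± 0.27) did not pass either.

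**Figure D4:**
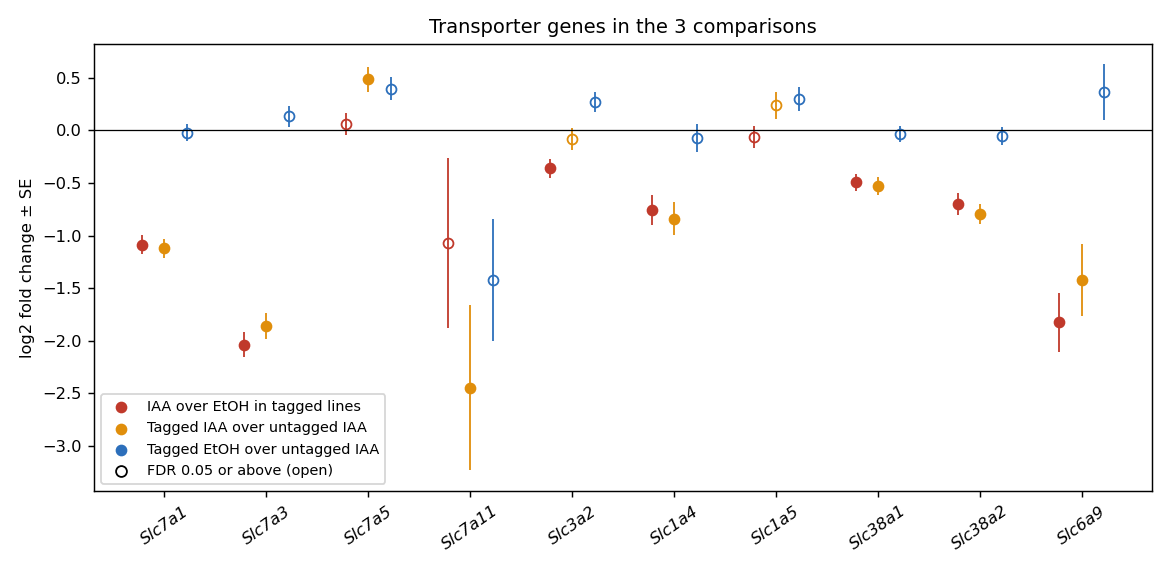
Log2 fold change with its SE for each transporter gene in IAA over EtOH in the tagged lines (red), tagged IAA over untagged IAA (orange) and tagged EtOH over untagged IAA (blue); filled points passed an FDR of 0.05. Slc7a3 lies near -2 in red and orange and at 0.13 in blue, and Slc7a5 is the only gene with a filled point above 0.

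Levels can be compared between genes only per length, here as CPM per kilobase of the annotated exons of each gene merged over its transcripts. In tagged IAA cells Slc7a5 had the highest level (111 ± 13.7, SD, n = 3), followed by Slc3a2 (57.8 ± 4.18), Slc1a5 (42.5 ± 0.97), Slc38a2 (23.5 ± 4.45), Slc7a1 (14.4 ± 0.44), Slc1a4 (9.30 ± 0.37), Slc38a1 (8.68 ± 0.41), Slc7a3 (6.58 ± 1.08), Slc6a9 (0.90 ± 0.32) and Slc7a11 (0.039 ± 0.039). Only the neighbours Slc1a4 and Slc38a1 overlapped in that order. In tagged EtOH cells the order was Slc7a5 (108 ± 13.7, n = 4), Slc3a2 (74.9 ± 6.07), Slc1a5 (44.3 ± 5.46), Slc38a2 (36.6 ± 3.21), Slc7a1 (30.9 ± 2.51), Slc7a3 (26.8 ± 0.83), Slc1a4 (15.7 ± 2.68), Slc38a1 (12.1 ± 0.14), Slc6a9 (3.22 ± 1.44) and Slc7a11 (0.056 ± 0.009). There Slc38a2 overlapped with both Slc1a5 and Slc7a1. Slc7a3 thus stood in place 8 of 10 under IAA and in place 6 under EtOH. In untagged IAA cells Slc7a5 (81.6 ± 9.17, n = 3) and Slc3a2 (62.1 ± 6.34) again led and Slc7a11 (0.152 ± 0.0945) was last. Merged exons include long alternative ends that may be unused here, so levels of Slc38a1 and Slc7a11, with 17236 and 13922 exon bases, could be understated.

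Beside the 10, 6 lists of amino acid genes were described in IAA against EtOH, each to be read against the 29.3% of all tested genes called higher and the 28.1% called lower. Of 30 other surface amino acid transporters, 17 were tested, of which 9 (52.9%) rose and 4 (23.5%) fell under IAA, with a median log2 fold change of 0.83. One of the 9, Slc6a20a, passed the filter on low counts (1.29 CPM) through IAA libraries only, with 18 reads in tagged IAA and 3 in tagged EtOH, which leaves 8. Slc43a2, which encodes LAT4, a carrier of large neutral amino acids, rose to 44.2 ± 3.36 CPM in tagged IAA, against 14.2 ± 1.90 in tagged EtOH (1.62 ± 0.14, edgeR FDR 1.45e-07). Slc16a10, the aromatic amino acid carrier TAT1, rose to 10.6 ± 2.19 CPM in tagged IAA, against 3.01 ± 0.742 in tagged EtOH (1.91 ± 0.24). Slc6a6, the taurine carrier, fell by 1.31 ± 0.10 on the log2 scale, and Slc38a4, an amino acid carrier imprinted in mouse placenta, fell by 0.81 ± 0.11. The count of higher members was 5 without 10E IAA replicate 1 or without 11D IAA replicate 2. Exons of Slc43a2 and Slc6a6 overlap those of an antisense or unclassified transcript.

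Of 11 transporter genes of lysosomes and other endomembranes, 10 were tested, and 4 (40.0%) were higher and 2 (20.0%) lower, with a median log2 fold change of 0.27. One of the 4, Slc7a14, passed the filter through IAA libraries only, with 24 reads in tagged IAA and 7 in tagged EtOH, and without it the median was 0.17. These counts are close to the shares over all genes. Slc38a9, the lysosomal arginine sensor of mTORC1, rose by 1.08 ± 0.15 on the log2 scale and Pqlc2, the lysosomal exporter of cationic amino acids, by 0.72 ± 0.15. Slc38a7, a lysosomal glutamine exporter, fell by 0.44 ± 0.11, and Slc38a10 fell by 0.27 ± 0.09. With library totals alone 8 of these genes were higher and 0 lower, and Slc38a10 stood at 0.06. Leaving out 11D IAA replicate 2 gave 2 higher and 1 lower, and leaving out 10E IAA replicate 1 gave 1 lower. Exons of Slc38a9 and Slc38a10 overlap those of a transcript on the other strand. Of 12 mitochondrial amino acid carriers, 2 (16.7%) were higher and 4 (33.3%) lower, with a median of 0.17. Of these, Slc25a29 passed the filter through IAA libraries only and Slc25a18 through EtOH libraries only, which leaves 1 higher and 3 lower. Slc25a44, a carrier of branched-chain amino acids, rose by 1.26 ± 0.11 on the log2 scale. Slc25a29, a carrier of basic amino acids, had 37 reads in tagged IAA and 25 in tagged EtOH (1.49 ± 0.45). Sfxn1, the mitochondrial serine carrier, fell by 1.24 ± 0.10, and Slc25a13, an aspartate and glutamate carrier, fell by 1.12 ± 0.09. With library totals alone 6 of these carriers were higher and 4 lower.

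Genes that make amino acids or load them on tRNA were mostly lower. Of 21 amino acid synthesis enzymes 15 (71.4%) were lower and 3 (14.3%) higher (median -0.70, or -0.36 with library totals alone). Got1, the cytosolic aspartate aminotransferase, fell to 71.5 ± 6.44 CPM in tagged IAA, against 227 ± 13.98 in tagged EtOH (-1.68 ± 0.10). Bcat1, the cytosolic branched-chain aminotransferase, fell by 1.54 ± 0.09 on the log2 scale. Glul, glutamine synthetase, rose to 216 ± 12.4 CPM in tagged IAA, against 111 ± 19.9 in tagged EtOH (1.02 ± 0.10), and Cbs, of cysteine synthesis, rose by 0.55 ± 0.09. Exons of Bcat1 and Glul overlap those of another gene by a few percent. Of 20 cytosolic aminoacyl-tRNA synthetases 15 (75.0%) were lower and 1 (5.00%) higher (median -0.81, or -0.48 with library totals alone). The aspartyl- and glycyl-tRNA synthetase genes Dars and Gars fell by 1.43 ± 0.10 and 1.29 ± 0.09 on the log2 scale, and the tryptophanyl-tRNA synthetase gene Wars rose by 0.85 ± 0.11. With library totals alone 4 synthetases were higher, and 2 were without 11D IAA replicate 1.

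Of 32 sensors of amino acids and genes of mTORC1 and its regulators, 10 (31.2%) were higher and 10 (31.2%) lower, shares near those over all genes, with a median of -0.03 that became 0.30 with library totals alone (17 higher, 5 lower). Atf4 fell to 96.9 ± 8.01 CPM in tagged IAA, against 281 ± 51.2 in tagged EtOH, and stood at 252 ± 18.1 in untagged IAA (log2 fold change of IAA over EtOH -1.48 ± 0.11, edgeR FDR 1.82e-08). Nprl3, a subunit of the GATOR1 complex that restrains mTORC1, fell by 2.17 ± 0.22 on the log2 scale, with exons of Mpg covering 17.7% of its exon bases. Rragd, a Rag GTPase that recruits mTORC1 to the lysosome, rose by 1.25 ± 0.11, and Flcn, which acts on the Rag GTPases, rose by 0.52 ± 0.10. No call is made on any of the 6 lists as a set.

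**Figure D5:**
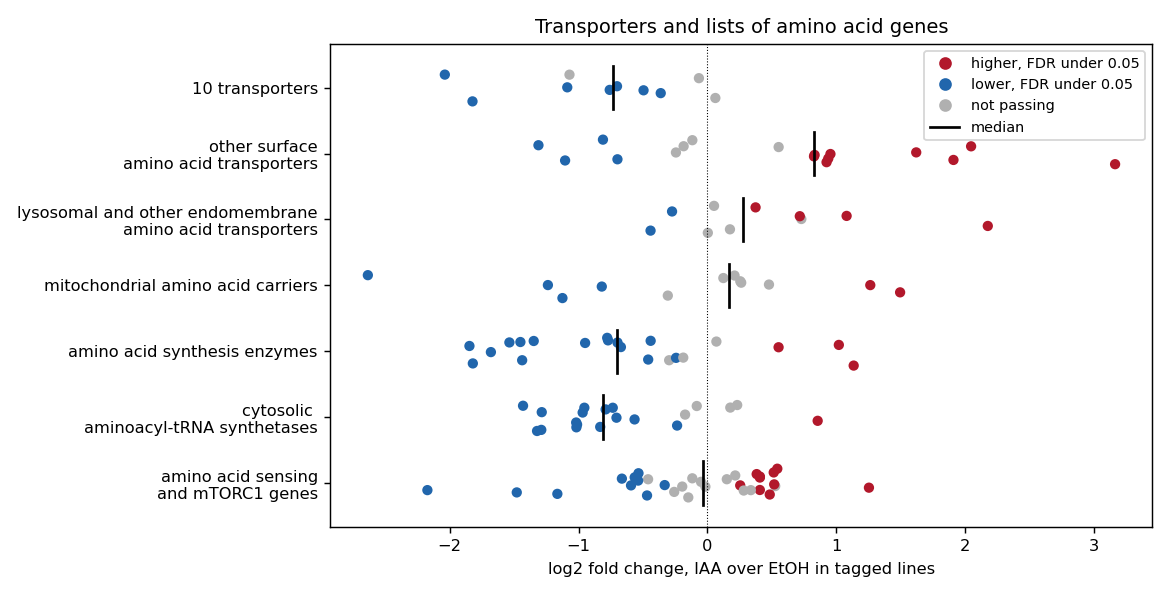
Log2 fold change of IAA over EtOH in the tagged lines for the 10 transporters and for each tested gene of 6 lists of amino acid genes; red points passed an FDR of 0.05 higher, blue points lower, grey points did not pass, and black bars are medians. The medians lie at -0.73 for the 10 transporters, 0.83 for other surface carriers, -0.70 for synthesis enzymes and -0.81 for aminoacyl-tRNA synthetases.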

How the data were processed

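RNA was extracted with TRIzol and libraries came from a NEBNext Directional kit, as the labels say. The authors deposited whole-number read counts per gene symbol without normalization. STAR and deepTools, with mm10 as the build, are listed in the submitters' processing notes. The read counter, annotation, strand setting and versions were not given in the sources used here. The authors' deposited comparison table holds a base mean (a signal after size factors), a log2 fold change with SE, a Wald score, and a p-value and adjusted p-value, which are DESeq2 columns per the file headers. The authors' deposited table called 7 of the 10 members lower and 0 higher, and it was not used further.

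The labels list 11 samples and the count table holds 10 libraries. Columns coded TIR1 were assigned to the untagged line, which in the labels lacks ethanol samples and reaches replicate 3. No library was a copy of another: over pairs of replicates, chi-square divided by its degrees of freedom ran between 2.84 and 25.5. Separate cultures are not named in the labels, and p-values then reflect spread between libraries that may be technical.

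The test was the quasi-likelihood F test of edgeR 4.0.16 (TMM factors, filterByExpr) in R 4.3.3 on 7 tagged libraries with line as a term, and on all 10 libraries for comparisons with the untagged line. CPM were scaled by TMM over all 10 libraries. On simulated data for IAA against EtOH (16597 genes) the test recovered 95% of 2-fold and 100% of 4-fold changes. There 100 well-expressed genes were changed per size, evenly up and down, with the same spread for all genes and no line effect. The real data had far more changed genes and a scaling shift. The recovered shares therefore do not carry over to them, nor to genes with few reads such as Slc7a11. Exon bases and overlaps came from GENCODE M21. DESeq2 1.42.0, other filters, designs and left-out libraries were alternatives. The members and lists were chosen with earlier results of these data known. Named genes were the 10 members and, per list and direction, up to 2 called genes with the smallest FDR. Slc6a20a, Slc7a14 and Slc25a18 were named after their values were seen, since they passed the filter through 1 group only.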

Additional observations from a re-analysis of the deposited data

Results flagged for a closer look

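In the group of 4 tagged EtOH libraries, 3 of the 10 transporter genes had 1 library flagged as apart from the others. The flag was Dixon's ratio of the gap to the whole range above its 95% critical value. Chance flags about 1 in 20 groups, and 10 were examined. For Slc7a3 the ratio was 0.960, with 11D EtOH replicate 2 lowest at 96.7 CPM and the other 3 libraries at 103. That gap is small in CPM, and the ratio is high because the other 3 were nearly equal. For Slc3a2 it was 0.968, with 10E EtOH replicate 1 at 296 CPM and the other 3 at 253 to 254. For Slc6a9 it was 0.875, with the same library at 27.6 CPM and the other 3 at 12.1 to 14.1. Without 10E EtOH replicate 1, Slc6a9 still fell, by 1.62 on the log2 scale (edgeR FDR 6.66e-05).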

How the results depend on the processing

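Of 449 recomputed values of single members over all alternatives, 414 kept their direction and their side of the threshold. In IAA against EtOH, 7 members were lower and 0 higher with every library left out in turn, over all genes with 4016 to 5085 lower and 3888 to 4907 higher. Library totals alone gave 2851 genes lower, 2 members higher, and Slc1a5 at 0.26. Under that scaling 8 lysosomal transporters were higher and 0 lower, 6 mitochondrial carriers and 4 synthetases were higher, and 17 sensing genes were higher and 5 lower. With single libraries left out, 5 to 9 other surface transporters were higher, 2 to 4 lysosomal ones higher and 1 to 2 lower, and 1 to 2 synthetases higher. Slc7a5 ran between -0.0081 (without 10E IAA replicate 1) and 0.14.

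For the interaction, DESeq2 called 1 gene lower, no filter on low counts gave 12 higher and 15 lower, and left-out libraries gave 0 to 2 lower. Its sign turned for Slc7a11 (-0.28 with DESeq2, -0.16 with the replicate block) and Slc3a2 (-0.064 without the filter, -0.052 with the block). With single libraries left out it turned for 5 members, none of them called, and ran between -0.000095 and 0.37 for Slc7a5, -0.098 and 0.12 for Slc3a2, -0.42 and 0.18 for Slc1a4, -0.24 and 0.13 for Slc1a5, and -0.19 and 0.95 for Slc6a9.

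For tagged IAA against untagged cells, library totals alone gave 3006 genes lower, 2 members higher and Slc3a2 at 0.21, and left-out libraries gave 1 to 2 members higher and 6 to 7 lower, Slc7a11 counted where it was called. For tagged EtOH against untagged cells, 222 genes were called higher and 400 lower. Library totals alone gave 715 lower, DESeq2 340 higher, and no filter 643 higher and 723 lower. Left-out libraries gave 17 to 509 higher and 66 to 546 lower, with the fewest without untagged IAA replicate 1. Slc7a5 was the 1 member called higher with DESeq2, with no filter, with the block and without some single libraries (0 to 1). An alternative chosen after seeing the data left out the 2 EtOH libraries richest in the transcript CT010467.1 and also called 1 member, with Slc1a4 at 0.054. Slc1a4 stood at 0.028 with the block. With single libraries left out, Slc1a4 ran between -0.23 and 0.059, Slc7a1 between -0.053 and 0.0031 and Slc38a2 between -0.13 and 0.0033, none of them called. The cause of these shifts was not tested.

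Whether the replicate numbers pair the samples could not be decided. Deviations of same-numbered libraries correlated at 0.181 for 11D EtOH with 11D IAA, the only pair within a line. They correlated at -0.170 for 10E EtOH with 11D EtOH and -0.111 for 10E EtOH with 11D IAA. In groups of 2 libraries the deviations mirror each other, so these values neither show nor exclude pairing. With the replicate number as a block, 5047 genes were higher and 4872 lower in IAA, and 142 higher in tagged EtOH against untagged cells, and 7 members were lower in IAA. Depth limits Slc7a11, with 1 to 22 reads a library.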
